A study of Mus musculus with 16 samples.

Results

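The mammalian circadian clock was examined here through 10 of its genes, Arntl, Clock, Npas2, Per1, Per2, Per3, Cry1, Cry2, Nr1d1 and Dbp, in maps of open chromatin from 8 mouse tissues. The members were chosen by name as the core loop and 1 of its best known output genes, and they are 10 of the 21938 protein-coding genes of the GENCODE vM21 annotation on GRCm38. The assay was ATAC-seq, where a transposase cuts and tags DNA that is not packed by nucleosomes, and the deposited data are peak lists, each peak having a summit where most cuts fall. The 16 libraries covered heart, muscle, liver, kidney, spleen, lung and both brown and white adipose tissue of adult male C57BL/6 mice, wild type by the series title, that either ate chow freely (fed) or went without food for a day (fasting). Tissue of the mice of a group was pooled before nuclei were isolated, so that each tissue and state is 1 unreplicated library, and within a state the organs were taken from 1 set of animals. Tissues of both states were collected at 1 clock time in the morning, and a phase of the daily rhythm therefore cannot be read from these data.

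In the clock, ARNTL (BMAL1) pairs with CLOCK, or with its relative NPAS2, and the pair binds E-box sequences to turn on the Per and Cry genes, Nr1d1 and Dbp. The PER and CRY proteins return to the nucleus and block the pair, while NR1D1 (REV-ERB alpha) represses Arntl through ROR elements and DBP activates genes with a D-box. The loop runs in nearly every tissue, and in peripheral organs its timing follows feeding as well as the brain.

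To show what open DNA at these genes looks like, the reference sequence under the summit of the strongest region was read for each member. Motifs were searched on both strands by exact letters: the E-box CACGTG, the D-box TTATGTAA or TTACGTAA, the core of the ROR element TAGGTCA and the cAMP response element TGACGTCA. The following stretches of GRCm38 were taken from the RefSeq assembly and are given 5′ to 3′ on the strand of the gene, with every match in capitals. The first 3 lie under promoter summits that hold a motif, and 86 bases of an annotated untranslated exon were left out of the Per2 stretch.
Nr1d1, summit inside the gene (chr11:98773854-98774153, minus strand): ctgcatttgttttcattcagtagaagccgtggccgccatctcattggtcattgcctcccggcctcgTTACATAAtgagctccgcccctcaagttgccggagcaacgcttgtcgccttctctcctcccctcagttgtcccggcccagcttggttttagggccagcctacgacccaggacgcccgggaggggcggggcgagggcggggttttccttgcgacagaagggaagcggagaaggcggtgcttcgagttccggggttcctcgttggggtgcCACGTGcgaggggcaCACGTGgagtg
Per2, summit at the start (chr1:91459325-91459538, minus strand): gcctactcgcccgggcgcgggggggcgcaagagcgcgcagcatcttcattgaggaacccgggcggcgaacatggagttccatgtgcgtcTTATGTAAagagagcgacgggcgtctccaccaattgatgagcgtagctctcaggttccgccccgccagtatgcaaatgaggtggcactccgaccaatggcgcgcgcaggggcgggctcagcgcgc
Per3, summit upstream of the start (chr4:151044780-151045079, minus strand): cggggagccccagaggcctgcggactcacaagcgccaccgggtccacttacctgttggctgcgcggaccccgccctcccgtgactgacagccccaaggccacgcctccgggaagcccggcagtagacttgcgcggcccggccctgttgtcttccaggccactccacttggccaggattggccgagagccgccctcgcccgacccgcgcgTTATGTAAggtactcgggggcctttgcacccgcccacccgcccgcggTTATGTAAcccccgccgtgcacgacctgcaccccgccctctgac

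Nr1d1 carried 2 E-boxes and a D-box within 300 bp, Per3 carried 2 D-boxes and Per2 carried 1, and the D-box of Per2 was centred 56 bp upstream of the summit. Of the 10 promoter summits of the members, 3 held a D-box, 1 an E-box, 1 (Npas2) a ROR core and 0 a cAMP response element. Among all 32851 RefSeq promoter windows of the same length, 7.15% held the E-box, 1.06% the D-box, 2.61% the ROR core and 1.79% the cAMP response element. In the 23371 regions shared by all libraries, the shares were 7.38%, 0.74%, 2.0% and 1.81%. In the RefSeq promoter windows themselves (9 of the members had 13 windows, and none matched Per2), an E-box was found for Cry1 and Per1, D-boxes for Per3 and a ROR core for Arntl. A match is a run of letters in the reference and not evidence of a bound factor.

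A further set was taken from the strongest distal region of a member, meaning a region in the gene body or within 10 kb of it whose summit is more than 3 kb from every annotated start, and by strongest the highest mean rank over the 16 libraries, with unlisted libraries counted as 0. They are shown as the distal sites described one by one in the text.
Arntl, intron, 53.2 kb into the gene (chr7:113260546-113260845, plus strand): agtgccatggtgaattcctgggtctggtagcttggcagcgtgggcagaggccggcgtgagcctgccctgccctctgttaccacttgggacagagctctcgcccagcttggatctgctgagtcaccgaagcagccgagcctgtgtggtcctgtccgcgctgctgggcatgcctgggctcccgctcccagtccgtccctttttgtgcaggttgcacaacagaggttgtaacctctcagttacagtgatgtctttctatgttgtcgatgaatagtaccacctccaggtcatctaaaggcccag
Cry1, intron, 23.1 kb into the gene (chr10:85161796-85162095, minus strand): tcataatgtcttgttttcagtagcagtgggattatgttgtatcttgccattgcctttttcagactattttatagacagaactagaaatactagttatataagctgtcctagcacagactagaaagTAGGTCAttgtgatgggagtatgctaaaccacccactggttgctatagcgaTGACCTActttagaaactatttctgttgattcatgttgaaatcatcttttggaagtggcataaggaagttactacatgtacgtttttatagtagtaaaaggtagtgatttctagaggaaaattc
Cry2, intron, 10.2 kb into the gene (chr2:92423698-92423997, minus strand): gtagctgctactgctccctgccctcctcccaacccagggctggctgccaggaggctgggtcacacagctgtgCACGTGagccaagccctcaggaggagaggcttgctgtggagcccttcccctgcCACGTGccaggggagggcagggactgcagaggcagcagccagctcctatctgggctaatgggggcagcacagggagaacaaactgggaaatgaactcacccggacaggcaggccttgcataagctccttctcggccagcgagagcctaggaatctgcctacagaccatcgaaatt
Nr1d1, intergenic, 8.26 kb upstream (chr11:98783446-98783745, minus strand): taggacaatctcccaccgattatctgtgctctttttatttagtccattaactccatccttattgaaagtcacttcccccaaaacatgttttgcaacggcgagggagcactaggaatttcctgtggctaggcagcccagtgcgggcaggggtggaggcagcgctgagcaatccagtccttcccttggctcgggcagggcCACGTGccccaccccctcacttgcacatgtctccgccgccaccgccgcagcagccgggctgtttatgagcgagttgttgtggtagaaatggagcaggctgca

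The Cry1 stretch held a pair of ROR cores in opposite orientation around its summit, the Cry2 stretch 2 E-boxes, the Nr1d1 stretch 1 E-box and the Arntl stretch none of the 4 motifs. Over the 9 members with a distal region, 2 held an E-box, 2 a ROR core (Cry1 and Npas2) and 0 a D-box or cAMP response element.

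The strength of a peak was expressed as its rank, the percentile of the authors' −log10 p within the peak list of the same library, from 100 for the strongest peak to 0 where no peak was listed. Ranks were used because the deposited values are not scaled between libraries. The promoter rank of a gene is the highest rank among peaks with a summit within 3000 bp of any of its annotated starts. Background tags, the cut number expected by chance at a site, are proportional to depth and ranged from 2.80 in fed liver to 12.8 in fed brown adipose. Lists of tissue marker genes, 5 genes each, had their highest mean promoter rank in the labelled tissue for 7 of 8 tissues, while the white adipose list (Adipoq, Lep, Plin1, Retn, Fabp4) reached 88.8 in white adipose and 93.1 in brown adipose.

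All 10 clock promoters were open in every library. A promoter peak was listed, with q under 0.01, in 160 of 160 combinations of gene and library, whereas 61.4% of all protein-coding genes had a listed promoter peak in all 16 libraries. The ranks of the members ran from 69.7 (Dbp in fed liver) to 99.6 (Per2 in fed muscle) with a median of 96.0, beside a median of 94.8 over all listed promoters. Presence thus did not separate tissues or states at these promoters, and the comparisons that follow use rank.

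**Figure D1:**
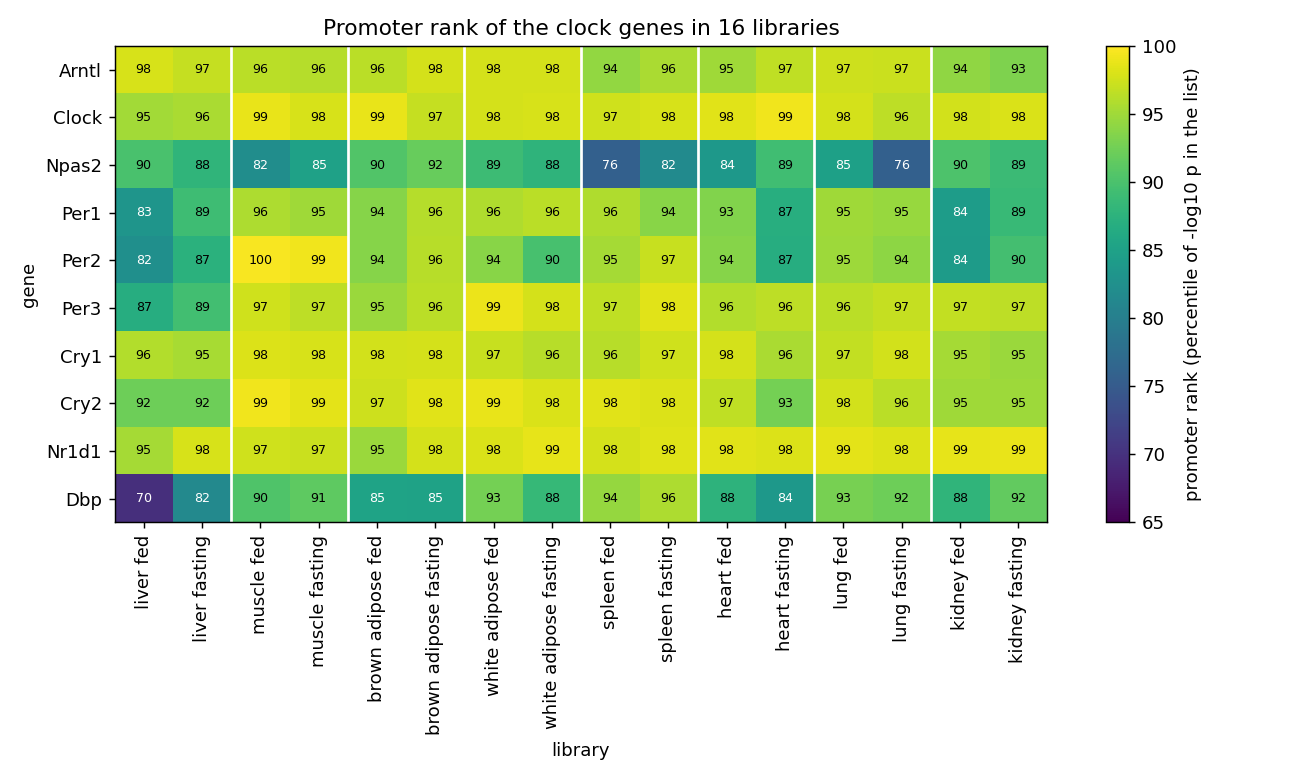
Promoter rank of the 10 clock genes (rows) in the 16 libraries (columns, fed and fasting side by side for each tissue), with colour and printed numbers giving the percentile of −log10 p within the list. Clock, Cry1, Cry2, Arntl and Nr1d1 lay above 92 in every library, while Dbp, Per1 and Per2 had their lowest values in fed liver, Dbp at 69.7.

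In the positive limb, Clock and Arntl ranked above 93 in every library and Npas2 ranked lower. Clock, which encodes the histone acetyltransferase partner of the heterodimer (chromosome 5, 76209868 to 76304792, minus strand), ranked from 95.1 in liver to 98.9 in muscle among the fed libraries, with a median of 97.8, and from 95.5 in liver to 99.2 in heart among the fasting ones, with a median of 97.9. Arntl, whose product is the obligate partner in the loop (chromosome 7, 113207465 to 113314126, plus strand), ranked from 94.1 in kidney to 97.9 in liver in the fed state (median 96.4) and from 93.2 in kidney to 97.8 in brown adipose in the fasting state (median 96.8). Kidney held the lowest Arntl rank in both states, but its summits held 46.0 (fed) and 42.3 (fasting) tags per background tag, beside a median of 41.2 over all libraries. Npas2, the CLOCK relative (chromosome 1, 39193731 to 39363236, plus strand), had a wider range, from 75.8 in spleen to 90.5 in brown adipose in the fed state (median 87.0) and from 75.7 in lung to 91.9 in brown adipose in the fasting state (median 87.8). The strongest Npas2 peak did not stay at 1 start: in fasting liver, fed spleen and fed lung it lay about 147 kb into the gene, 676 to 737 bp from an internal annotated start, and in the adipose and kidney libraries other than fasting white adipose it lay 806 to 985 bp upstream of the gene.

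The period genes varied more. Per2, a repressor whose loss shortens or abolishes the rhythm (chromosome 1, 91415982 to 91459324, minus strand), ranked 99.6 in fed and 99.3 in fasting muscle, above every other tissue, and 82.4 and 87.3 in liver, with medians of 93.7 over the fed and 91.9 over the fasting libraries. Per1, an immediate light- and hormone-responsive repressor (chromosome 11, 69095217 to 69109960, plus strand), ranked from 83.2 in liver to 95.8 in white adipose in the fed state (median 94.3) and from 87.0 in heart to 96.4 in white adipose in the fasting state (median 94.2). Its strongest peak lay at the first start in 12 libraries, within 27 bp of it, and 1684 to 1694 bp from the nearest start, in an intron, in both liver libraries, fed heart and fasting kidney. Per3, a weaker clock component whose start lies in an intron of Camta1 (chromosome 4, 151003652 to 151044665, minus strand), was lowest in liver in both states, at 86.8 and 89.4, and reached 98.9 in fed white adipose.

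The cryptochromes, the strongest repressors of the loop, were ranked highest in muscle in both states. Cry1 (chromosome 10, 85131700 to 85185064, minus strand) ranked 98.2 and 97.9 in fed and fasting muscle, with the lowest ranks, 95.3 and 94.7, in kidney. By fold enrichment of its summit over the expected tags, fed kidney was instead the highest library (12.3) and fasting heart the lowest (5.87). Cry2 (chromosome 2, 92403646 to 92434043, minus strand) ranked 99.3 and 98.6 in muscle and 92.2 and 92.3 in liver, its lowest values.

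Nr1d1, the repressor that links the loop to lipid metabolism (chromosome 11, 98767932 to 98775333, minus strand), had the highest median rank of the targets, 98.1 over the 16 libraries, and ranked from 94.7 in brown adipose to 98.7 in kidney in the fed state and from 97.3 in muscle to 98.8 in kidney in the fasting state. In 15 libraries its strongest peak lay 1322 to 1334 bp inside the gene, in the stretch with the paired E-boxes printed above, and in fed brown adipose it lay 140 bp upstream of the first start. The region at the first start was open in all 16 sets as well, with ranks of 91.9 to 96.5 outside spleen and of 71.1 and 62.4 in fed and fasting spleen. Dbp, an output factor that acts on D-boxes (chromosome 7, 45705088 to 45710203, plus strand), had the widest spread, from 69.7 in fed and 81.5 in fasting liver to 94.4 in fed and 95.6 in fasting spleen. In fed brown adipose the Dbp summit held 758 tags with 225 expected, a rank of 85.3, and the Nr1d1 summit 992 tags with 198 expected, a rank of 94.7.

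Whether these tissue differences recur in the other state was tested with an exact permutation test over all pairings of the 8 fed with the 8 fasting libraries (one-sided, same tissue closer), with Benjamini-Hochberg adjustment over all 19719 protein-coding genes with a promoter peak. The tissue pattern was called for 4 of the 10 members at adjusted p under 0.05, where 48.1% of all genes were called, so that the members were not called at more than the rate of genes in general. The calls of the exact test were Dbp (adjusted p = 0.0180, mean difference of 3.31 rank points between the states of a tissue against 6.45 over all pairings), Cry2 (0.0220, 1.05 against 2.61), Arntl (0.0357, 0.83 against 1.60) and Per2 (0.0364, 3.29 against 5.84). The other 6 had adjusted p from 0.0596 (Per3) to 0.164 (Npas2) in the exact permutation test, and for Nr1d1 the states of a tissue differed by 0.98 points against 1.18 over all pairings. Without the liver, muscle or spleen pair, in turn, 1 of the 10 members was called, without the white adipose, lung or kidney pair 2 were, and without the heart pair 5 were. The libraries of a state share their mice, so these p-values speak of the pools and not of mice in general.

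The comparison of fasting with fed, the contrast the design was built on, did not separate the states at any member promoter over the 8 tissues. The mean difference in promoter rank, fasting minus fed, ran from -0.74 points for Cry2 (SD 1.5 over 8 tissues, lower in fasting in 6) to 1.08 for Dbp (SD 5.06, higher in 4). By the exact sign-flip permutation test over the 8 tissues (two-sided, smallest possible p 0.0078), 0 of the 10 members had an unadjusted p under 0.05, beside 5.25% of all genes, and 0 of 19719 genes passed Benjamini-Hochberg adjustment. The lowest p among the members were 0.172 for Nr1d1 (mean 0.77, SD 1.34, higher in 5) and 0.195 for Cry2, and without the brown adipose pair Cry2 had a mean of -1.02 with an exact p of 0.0312. With a window of 1000 bp the Nr1d1 mean turned to -0.73 (exact p = 0.797). That window leaves out the Nr1d1 peak inside the gene, the strongest in every library but fed brown adipose, so the means compare different sites. On a depth-scaled summit height, an alternative chosen after the data were seen, the same test also gave 0 of the 10 members and 306 of 13479 genes with unadjusted p under 0.05, and 0 genes after adjustment.

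**Figure D2:**
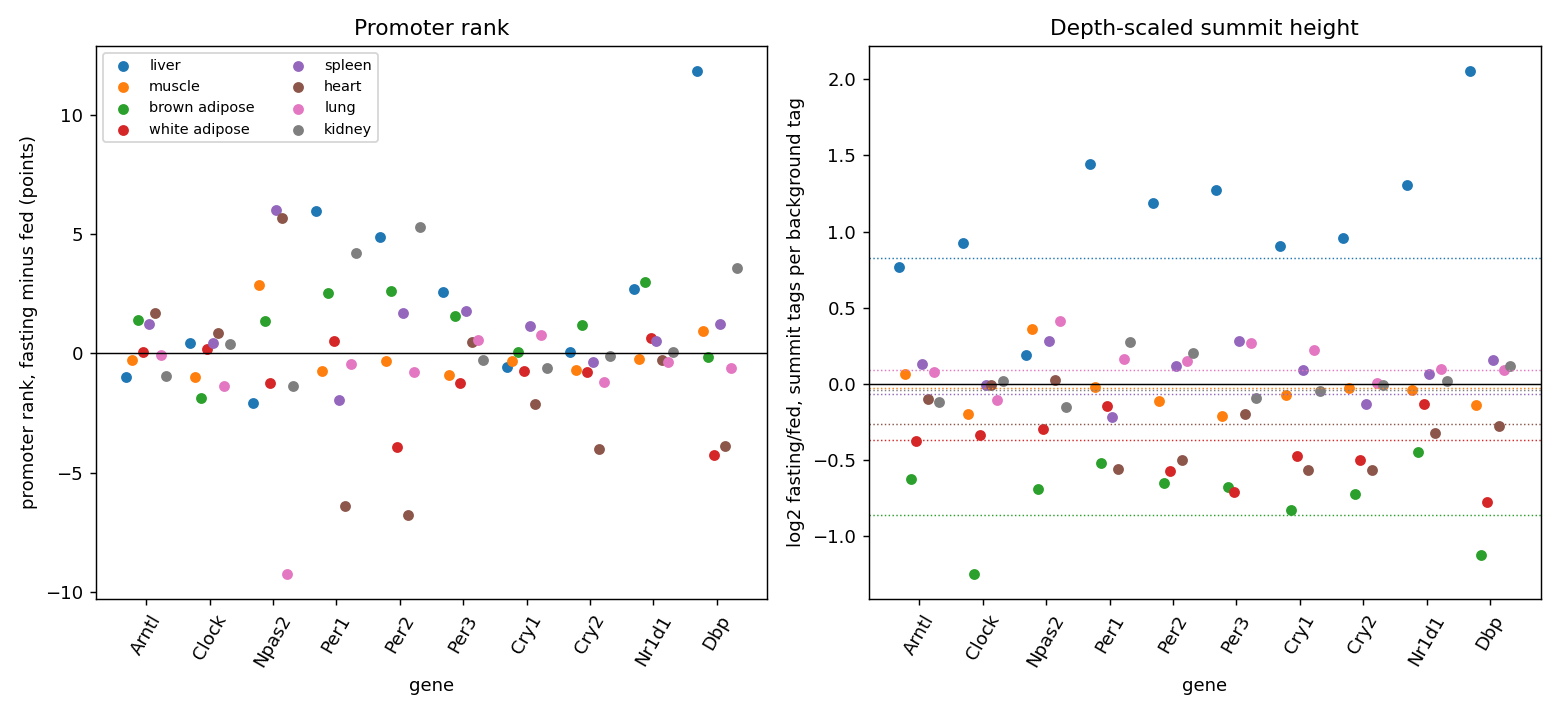
Difference between fasting and fed for each clock gene in each tissue (coloured points), on the left as promoter rank in points and on the right as log2 ratio of summit tags per background tag, with dotted lines at the median of all genes of each tissue. Differences scatter on both sides of 0 for every gene on the left, with Dbp in liver (11.8 points) and Npas2 in lung (-9.23 points) farthest out, while on the right whole tissues are displaced, liver upward and brown adipose downward.

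Within single tissues, where 1 library stands for each state and no test is possible, 8 of 80 pairs of gene and tissue differed by at least 5 points, 5 of them higher in fasting. In liver, Dbp was 69.7 in fed and 81.5 in fasting tissue, 11.8 points higher, and Per1 was 83.2 and 89.2, 5.99 points higher. So 2 of 10 members were higher and 0 lower by 5 points or more in liver, where 16.5% of all listed promoters were higher and 22.4% lower. Background was alike in the 2 liver libraries (2.80 and 2.82 tags, the lowest of all), the Dbp summit held 33 tags in the fed and 138 in the fasting one, and these strongest summits lay 1330 bp apart. Without the liver pair the mean difference of Dbp over tissues was -0.45.

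In heart, Per1 and Per2 were lower in fasting. Per2 was 93.6 in fed and 86.8 in fasting heart, 6.77 points lower, Per1 was 93.3 and 87.0, 6.37 points lower, and Npas2 was 83.7 and 89.3, 5.67 points higher. These are 1 higher among 10 members, where 13.6% of all listed promoters were higher by 5 points or more, and 2 lower, where 16.7% were lower. Cry2, at 96.6 and 92.6, and Dbp, at 87.6 and 83.7, were lower in fasting heart by 3.99 and 3.87 points.

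In kidney, Per2 was 84.2 in fed and 89.5 in fasting tissue, 5.31 points higher, the only difference of this size there (9.26% of all promoters higher, 8.76% lower). In spleen Npas2 was 75.8 and 81.8, 6.01 points higher (13.2% higher, 15.2% lower), and in lung it was 84.9 and 75.7, 9.23 points lower (7.89% higher, 11.2% lower). In these spleen and lung pairs the strongest Npas2 peak moved between the first and the internal start, so the ranks compare different sites. No member differed by 5 points in muscle (7.22% of all promoters higher, 11.4% lower), brown adipose (10.5% and 14%) or white adipose (11.6% and 14.6%).

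Grouped by role, the transcriptional targets (Per1, Per2, Per3, Cry1, Cry2, Nr1d1, Dbp) and the positive limb (Arntl, Clock, Npas2) did not keep a common direction across tissues. In liver 6 of 7 targets were higher in fasting (median 2.69 points) and 1 of 3 positive limb genes was (median -0.97), whereas in heart 1 of 7 targets was higher (median -3.87) and 3 of 3 positive limb genes were (median 1.68). In brown adipose and spleen the medians were positive for both groups, at 1.55 and 1.15 for the targets and 1.38 and 1.22 for the positive limb. Over all listed promoters the median difference lay between -0.13 and 0.03 points in each tissue, and the difference between the groups was not tested.

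Depth-scaled summit height moved with the library as a whole in several tissues. The log2 ratio of fasting over fed summit tags, per background tag, had a median over all genes of 0.82 in liver and of -0.86 in brown adipose, and the members had medians of 1.07 and -0.69. In white adipose the medians were -0.37 over all genes and -0.42 over the members, and in heart -0.26 and -0.30. In liver Dbp had a ratio of 2.05, Per1 of 1.44, Nr1d1 of 1.31 and Per3 of 1.27, all above that median, while Arntl had 0.77 and Npas2 0.19, below it. The strongest liver summits of the 2 states lay 146350 bp apart for Npas2, 1405 bp for Per3 and 1330 bp for Dbp. The ratios of these genes therefore compare different sites. In kidney the all-gene median was -0.04, with 0.28 for Per1, whose strongest summits lay 2019 bp apart, and 0.20 for Per2. The part of the library-wide shift in the liver values was not tested.

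Promoters included, the members had 499 open regions (q under 0.01, summit in the gene body extended by 10 kb) among the 760105 consensus regions formed by merging the sets of the 16 libraries. Of the 499, 32 were in all 16 sets, where 3.07% of all consensus regions were, and 210 were in 1 set only, where 50.1% were. The member share in all sets was 6.41%, and every member contributed at least 1 such region, 25 of the 32 lying within 3 kb of an annotated start of any gene and 17 of them within 3 kb of a start of the member itself. Npas2, the longest gene, had 109 regions, Arntl 88 and Clock 61, and Nr1d1 had 19. Regions were assigned by position alone, and several belong to neighbours, such as the starts of Hes6 beside Per2, Vamp2 beside Per1, Mterf2 beside Cry1 and Rpl18 beside Dbp.

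The range over tissue means was wider for distal than for promoter rank in 8 of the 9 members that have distal peaks. It was so most of all at Per3 (60.4 against 10.2 points), Clock (37.2 against 3.5) and Cry1 (35.1 against 3.10), and narrower at Per2 (7.32 against 14.6). The low end of the Per3 range was white adipose, at 51.8 in fed and 0, with no listed distal peak, in fasting. That range therefore rests on a library without a peak. Most promoter ranks lay near the top of the scale, and the share of all genes with a wider distal range was not counted. The distal rank, the highest rank among distal peaks of a gene and so not always that of the regions printed above, could be formed for 9 members, because every peak around Dbp lay within 3 kb of some start. The exact pairing test called the tissue pattern for 5 of the 9 (Cry1 with adjusted p = 0.0132, Arntl 0.0360, Cry2 0.0393, Clock 0.0486 and Npas2 0.0497), beside 48.6% of 19345 genes. For fasting against fed, 0 of the 9 had an unadjusted p under 0.05 by the exact sign-flip permutation test, beside 5.03% of genes, and the lowest was 0.0938 for Per1 (mean -5.37 points, SD 8.11, lower in fasting in 5 of 8 tissues). In the gene body without the 10 kb extension the Per1 mean turned to 17.9 (exact p = 0.0781). This leaves out the region past the end of Per1 that set its distal rank in most libraries, so the means compare different sites. A region over a coding exon of Per1 stayed in, listed in fasting alone in brown adipose, white adipose and kidney. The calls of the tissue pattern depended on single tissues and on the ranking: 1 to 3 members were called when 1 tissue was left out, and 2 when peaks were ranked by fold enrichment.

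**Figure D3:**
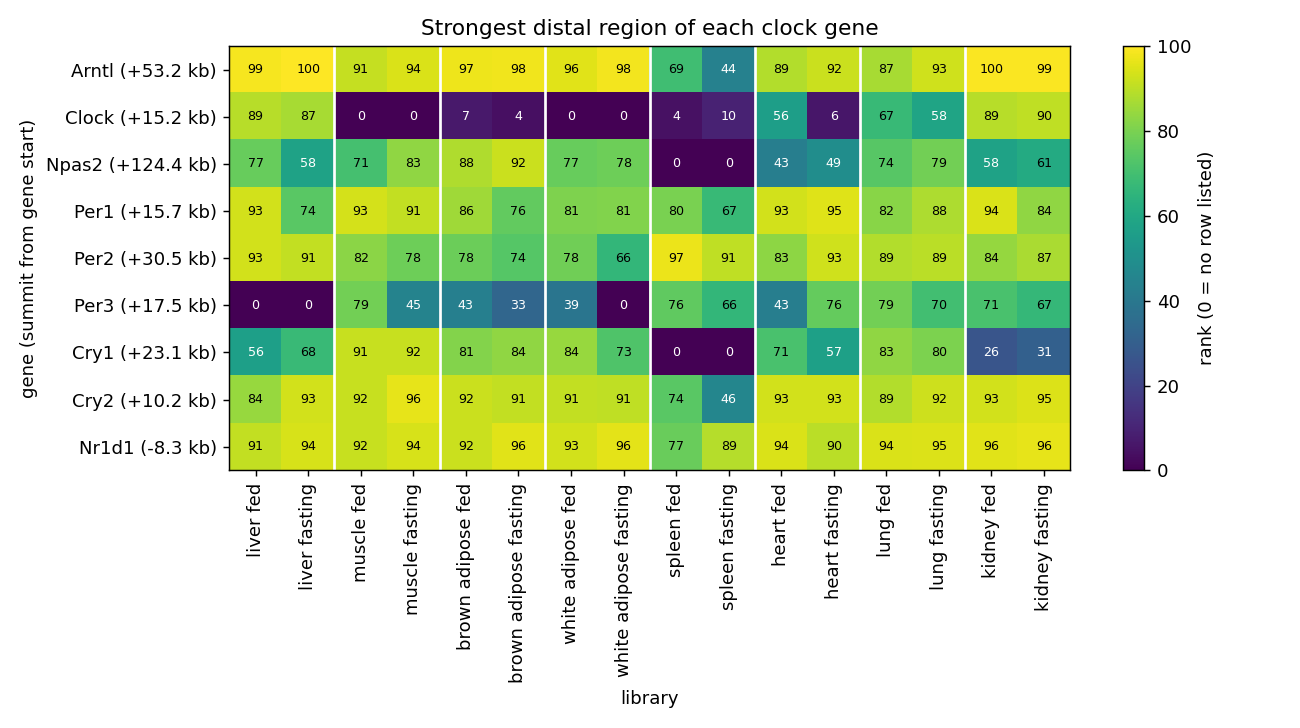
Rank of the strongest distal region of 9 clock genes (rows, with the distance of the summit from the gene start) in the 16 libraries (columns), where 0 means that no peak was listed. The regions of Arntl, Cry2 and Nr1d1 were lowest in spleen, those of Cry1 and Npas2 were not listed in spleen at all, and that of Clock was above 85 only in liver and kidney.

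The strongest distal region of Arntl lay in an intron 53.2 kb from the gene start (chromosome 7, 113260315 to 113261078) and was present in all 16 sets. Its rank was 99.6 and 99.4 in fed and fasting kidney and 98.7 and 99.8 in liver, higher than the Arntl promoter in the same libraries. In spleen it was 69.5 and 43.8, below every other tissue. The Clock region, in an intron 15.2 kb into the gene (chromosome 5, 76289211 to 76289843), ranked 89.1 and 90.3 in kidney and 89.3 and 87.0 in liver, was not listed in muscle or white adipose, and differed between the heart libraries, at 55.9 in fed and 6.1 in fasting.

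The Cry1 intronic region with the paired ROR cores (chromosome 10, 85161788 to 85162228) ranked 91.5 and 91.6 in fed and fasting muscle. It ranked 26.4 and 30.7 in kidney and was not listed in spleen. The Cry2 intronic region with the 2 E-boxes (chromosome 2, 92423297 to 92424359) was in all 16 sets and ranked from 84.4 to 96.2 outside spleen, where it was 74.4 in the fed and 45.9 in the fasting library. The upstream Nr1d1 region with an E-box (chromosome 11, 98783023 to 98783876) ranked 95.7 and 96.4 in kidney and 77.2 and 88.9 in spleen, with the fasting library higher in 7 of 8 tissues and lower in heart. The mean distal difference of Nr1d1 was 2.40 points (exact sign-flip permutation p = 0.172). Without the heart pair, the only one lower in fasting, it was 3.45. The remaining pairs then all share a sign, so the exact p of 0.0156 is the smallest that 7 pairs allow. It follows from the pair left out and adds no support.

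The strongest distal region of Per2, in an intron 30.5 kb from the start (chromosome 1, 91428421 to 91429255), ranked 97.1 and 90.6 in fed and fasting spleen. In every library of the other tissues a different distal peak of Per2 ranked higher, such as 99.0 against 93.2 in fed liver. The strongest of Per1 lay past the end of the gene, toward Hes7 (chromosome 11, 69110291 to 69111264), and ranked from 67.3 in fasting spleen to 95.0 in fasting heart. It was lower in fasting in liver (93.2 and 74.4), spleen (79.8 and 67.3), kidney (94.1 and 83.5), brown adipose (85.8 and 76.1) and muscle (93.4 and 90.8). In lung (82.2 and 87.8), heart (93.0 and 95.0) and white adipose (80.7 and 81.2) it was higher in fasting. Those of Npas2 (chromosome 1, 39317848 to 39318627) and Per3 (chromosome 4, 151026722 to 151027423) were not listed in spleen and in liver respectively, and reached 92.1 in fasting brown adipose and 78.9 in fed muscle.

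Further intronic regions, singled out after their values were seen, were also missing from the spleen lists. A Per2 region 13.2 kb into the gene (chromosome 1, 91445802 to 91447110) ranked 99.0 and 97.8 in liver and 97.0 and 96.7 in kidney, was between 74.2 and 94.6 in the other tissues and was not listed in spleen. In liver it outranked the Per2 promoter, which stood at 82.4 and 87.3. A Cry2 region 5.89 kb into the gene (chromosome 2, 92427763 to 92428237) ranked 97.5 and 96.7 in liver and 65.5 to 93.0 elsewhere, and was not listed in spleen either. By count, spleen was not poor in open regions at the members, with 149 in the fed and 150 in the fasting set, where the other sets held 83 to 153. The spleen sets were also the largest, with 202948 (fed) and 225899 (fasting) regions, where the others held 131688 to 201093. Relative to set size, only both liver libraries and fed heart had fewer member regions than fed spleen. Only fed liver and fed heart had fewer than fasting spleen. The reason for the missing regions was not tested.

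**Figure D4:**
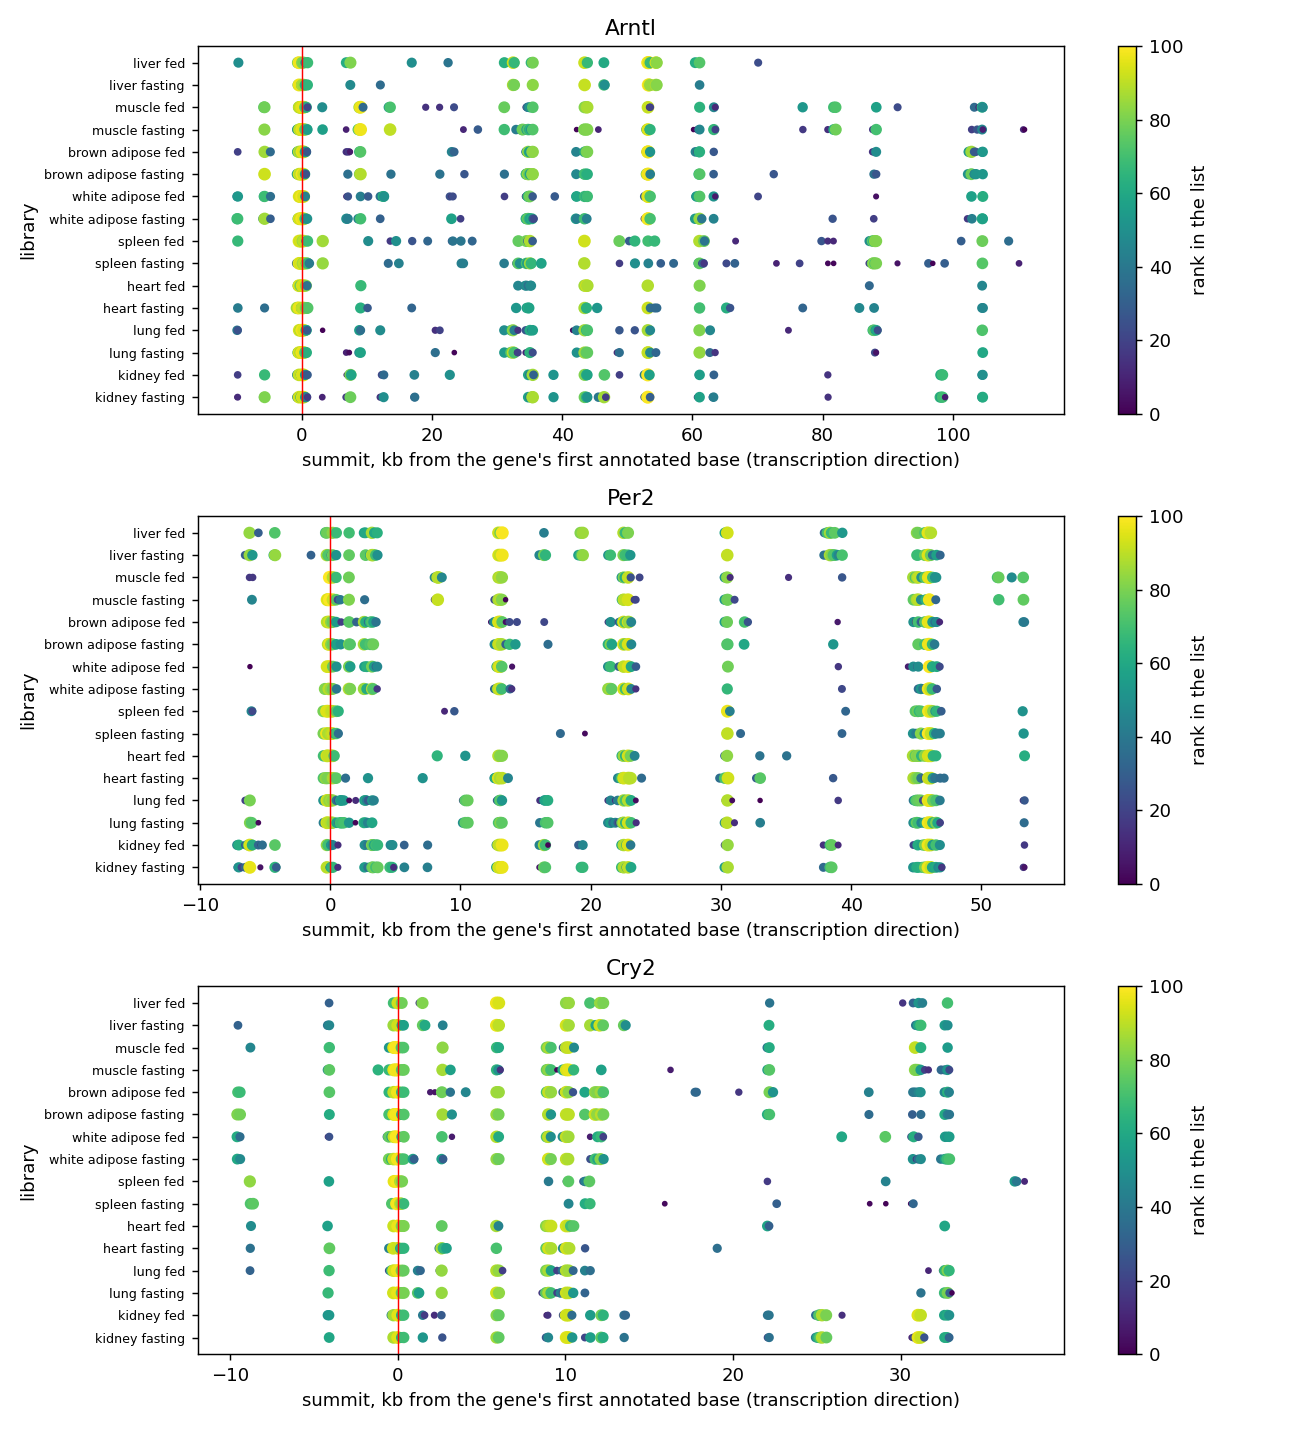
Summits of all peaks with q under 0.01 around Arntl, Per2 and Cry2 in the 16 libraries (rows), by distance in kb from the first base of the gene in the direction of transcription, with colour and point size giving the rank in the list. The promoter column at 0 is filled in every library, the Arntl column at 53.2 kb and the Per2 column at 13.2 kb are brightest in liver and kidney, and the Per2 columns at 13.2 and 22.9 kb are empty in spleen.

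Regions found in 1 tissue only were not more frequent at the members than elsewhere in the genome. By the rule that both libraries of a tissue hold the region and no list of another tissue has a peak there, 38 of the 499 member regions were private, where 10.4% of all consensus regions were. Spleen had 10, kidney 9 and muscle 8 of them, lung 4, and liver, brown adipose and white adipose 2 each, and heart 1. The strongest was a kidney region in an intron of Cry2, 25.3 kb from the start (chromosome 2, 92408281 to 92409253), which ranked 87.9 and 88.2 in the fed and fasting libraries. A muscle region in an intron of Npas2 (chromosome 1, 39310187 to 39310715) ranked 82.7 and 88.6, and 2 more muscle regions lay in an intron of Arntl (72.0 and 78.0) and beyond the end of Per2 (76.6 and 69.7). Liver had a region downstream of Per1 (68.1 and 72.4) and 1 in an intron of Sphk2 beside Dbp (58.4 and 77.6). The remaining 4 of the strongest 10 lay in Arntl (kidney, 68.1 and 68.9), Per2 (brown adipose, 70.1 and 59.5) and Npas2 (heart, 54.8 and 66.5, and kidney, 58.8 and 62.1).

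Regions held by 1 state and unlisted in the other, repeated in at least 3 tissues, were few. The lists of the 2 states did not end at the same −log10 p. The fed and fasting lists ended at 7.11 and 2.48 in brown adipose and at 6.10 and 3.39 in white adipose. In lung they ended at 5.13 and 4.77, and in heart at 2.76 and 3.29. A peak too weak for 1 list can therefore appear in the other state alone, and the part of this in the regions below was not tested. In the fasting set alone there were 6 of 499 member regions (0.834% of all consensus regions) and in the fed set only 3 (0.781%). An intronic Clock region 24.0 kb into the gene (chromosome 5, 76280576 to 76281151) was listed in fasting but not in fed brown adipose, white adipose, heart and lung, at ranks of 11.6 to 32.1, while spleen held it in both states at 68.7 and 71.1. A region over a coding exon of Per1 (chromosome 11, 69109043 to 69109889) was found in fasting alone in brown adipose (54.1), white adipose (39.1) and kidney (22.6), and in both states of muscle, spleen, heart and lung. A region 2.73 kb upstream of Per1 (chromosome 11, 69092446 to 69092629) was found in fed alone in brown adipose (41.6), white adipose (49.2) and spleen (51.3). An intronic Arntl region (chromosome 7, 113230111 to 113230990) was held by the fed library alone in muscle, brown adipose, spleen and kidney, but by the fasting library alone in lung. An intronic Cry1 region (chromosome 10, 85167658 to 85167879) was held by fasting alone in 4 tissues at ranks of up to 44.9, several of them close to the end of the list.

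Around the members, 15 other genes of the clock network were counted (among them Arntl2, Nr1d2, Rora, Rorb, Bhlhe40, Bhlhe41, Nfil3, Tef, Hlf, Csnk1d, Csnk1e, Fbxl21 and Ciart), and all 15 had a promoter peak in every library. The tissue pattern was called for 7 of the 15, close to the 48.1% of all genes. Rorb, a ROR receptor best known from neural tissue, had a mean promoter rank of 95.0 in brown adipose and 26.0 in spleen (adjusted p = 0.0137 in the exact pairing permutation test), and Hlf, a relative of Dbp, 97.3 in muscle and 79.1 in spleen (0.0211). Nr1d2, the second REV-ERB gene, was called with a range of 97.3 in spleen to 99.9 in kidney (0.00832).

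For fasting against fed, 3 of the 15 had an unadjusted p under 0.05 in the exact sign-flip permutation test, beside 5.25% of all genes. All 3 had higher ranks in fasting. By that exact test they included Bhlhe41, a repressor that competes for E-boxes (mean 2.03 points, higher in 6 of 8 tissues, p = 0.0391), and Csnk1e, a kinase of the PER proteins (1.40 points, 7 of 8, p = 0.0391). None of the 3 passed Benjamini-Hochberg adjustment over all genes, with an adjusted p of 0.877 for both genes named. Rora (1.2 points, p = 0.0625), Bhlhe40 (1.21, p = 0.117), Nr1d2 (-0.23, p = 0.211), Tef (0.30, p = 0.789) and Nfil3 (0.03, p = 0.977) did not reach that level in the same exact test.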

How the data were processed

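ATAC-seq was performed on pooled tissue of 8 organs in the fed and fasting states, 1 library each. Per the labels and the study's methods, the authors trimmed the reads, aligned them to GRCm38 with Bowtie2, removed unmapped and duplicate reads and called peaks with MACS2 in each library. Tool versions are not given in the sources used here. Each deposited list held 298996 to 299529 rows, and ended at a −log10 p of 2.48 to 7.11, so the depth to which weak peaks were listed differed between libraries. The deposited fold enrichment is a ratio of the tags at the summit to the expected tags, computed by the authors with MACS2. The deposited −log10 p and −log10 q are the authors' Poisson values within a library, not scaled between libraries. The files do not state depth, and the background tags per site serve as a relative measure.

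Summits were matched to 132629 start positions of GENCODE vM21. Ranks are percentiles of −log10 p over all rows of a list. Tags at the summit and expected tags were solved from fold and p together, and 100% of the rows gave a whole tag number within 0.05. Exact sign-flip tests over 8 tissues (256 arrangements) and exact pairing tests were computed for every protein-coding gene in Python 3.11.15 with numpy 2.4.6, scipy 1.17.1, pandas 2.3.3 and numba 0.67.0, with Benjamini-Hochberg adjustment over all genes tested, and were tested on simulated data. Following the methods of the study, open regions were those with q under 0.01, and the resulting sets were merged where they shared at least 1 bp. Figures were drawn with matplotlib 3.10.9.

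The members, the other clock genes, the marker lists and the tests were chosen with earlier results of these data known. All members were named. Other clock genes were named if they had an unadjusted p under 0.05, were among the 3 widest called tissue patterns, or were on a short fixed list that includes Nr1d2, Rora, Bhlhe40, Nfil3 and Tef, and some results under this rule are not reported here. Regions were named as the strongest promoter and distal region of a member, the 10 strongest private regions and the 5 leading regions of 1 state. Alternatives changed the window, the ranking, the starts, the threshold and the tissues used, and the depth-scaled height was added after the data were seen.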

Additional observations from a re-analysis of the deposited data

Results flagged for a closer look

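For 3 members the difference between the states, fasting minus fed, was at least 5 points of promoter rank in opposite directions in different tissues. Npas2 differed by 6.01 points in spleen and 5.67 in heart but by -9.23 in lung, with the strongest peak at another start in 1 state in spleen and lung. Per1 differed by 5.99 points in liver and -6.37 in heart, where its strongest peak lay in the intron in fed and at the start in fasting tissue. Per2 differed by 5.31 points in kidney and -6.77 in heart. With 1 library per tissue and state, the difference between tissues was not tested for any of them.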

How the results depend on the processing

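Because each tissue and state is 1 pooled library, no value has a replicate check, and depth is known only as background tags, lowest in both liver libraries. The sign-flip test pairs the states within each tissue, and the labels give no replicate numbers for a further block. Counts of all genes with unadjusted p under 0.05 for fasting against fed were 905 to 1041 (promoter) and 794 to 989 (distal) with 1 tissue left out, and 306 on depth-scaled summit height (main values 1036 and 973). With 1 tissue left out, the tissue pattern was called for 5801 to 7868 genes and 1 to 5 members at promoters, and for 5048 to 7863 genes and 1 to 3 members at distal peaks. Distal calls also fell to 2 members when ranked by fold enrichment and to 2 with rows at q under 0.01. The fewer tissues leave fewer pairings, and the cause of the other shifts was not tested. Changes of promoter rank numbered 23 at a step of 2 points and 9 at 10 points of the percentile among promoters. Per2 in heart was the only pair found both among these 9 and among the 8 that differed by at least 5 points of rank. The members had 274 regions at q under 1e-06 and 574 with all rows.

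Of 140 recomputed mean differences of members at promoters, 123 kept their sign and their side of the threshold, and of 98 at distal peaks 89 did, where Dbp has no distal value. None of those that changed sign had p under 0.05. With a 1000 bp window, which leaves out the intronic Per1 peak and the Nr1d1 peak inside the gene, the promoter mean was -0.50 for Per1 and -0.73 for Nr1d1. Ranked by fold it was 0.32 for Clock and -2.08 for Per1, and with rows at q under 0.01 it was -0.19 for Per2. On log2 height, added after the data were seen, it was -0.0236 for Arntl, -0.0246 for Per2 and -0.0109 for Per3. With 1 tissue left out the promoter mean ran from -0.571 to 1.61 for Npas2, -0.320 to 1.45 for Per1, -0.372 to 1.35 for Per2 and -0.452 to 1.85 for Dbp, and the distal mean from -0.0264 to 1.43 for Arntl, -0.822 to 0.719 for Per2, -10.4 to 1.82 for Per3 and -0.113 to 1.75 for Cry2. Without brown adipose the promoter mean of Cry2 was -1.02 (exact sign-flip permutation p = 0.0312). Without heart, the only tissue lower in fasting, the distal mean of Nr1d1 was 3.45. Its p of 0.0156 in the same exact test is the smallest that the remaining 7 tissues allow. In the gene body without extension, which leaves out the region past the gene end, the distal mean of Per1 was 17.9. With the extension and ranked by fold it was -10.4 (exact sign-flip permutation p = 0.0234).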
